A study of Homo sapiens with 24 samples.

Results

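Centromere and kinetochore genes were followed in 4 human neuroblastoma cell lines exposed to the demethylase inhibitor GSK-J4. The set holds 42 genes taken by gene symbol from a written list, out of 39772 genes listed for at least 1 line. No measured value was used as a rule of choice, but earlier results of these data were known when the list was made. All 42 were found in every line and all had an adjusted p-value there. SGO1 and SGO2 stood under older symbols in 3 of the lines and were matched by Ensembl identifier. The members were ordered into 9 roles: CENP-A and its loading (3 genes), the inner kinetochore (13), the outer kinetochore (9), the RZZ complex (3), the corona (2), the SKA complex (3), the spindle checkpoint (6), the shugoshins (2) and the centriole (1).

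Polyadenylated RNA was sequenced from 24 libraries in 8 groups of 3. Each line was exposed to 1 µM GSK-J4 for 72 hours or left without treatment, and whether untreated cells received a vehicle is not stated in the labels. LAN5 and IMR5 are labelled sensitive to GSK-J4 with amplified MYCN, SK-N-FI is labelled sensitive with wildtype MYCN, and SK-N-BE(2) is labelled resistant with amplified MYCN. Neuroblastoma is a childhood tumour of the sympathetic nervous lineage, and MYCN is a transcription factor gene whose amplification marks high-risk disease. Each kind of line is therefore a small set of single lines, with 1 resistant line and 1 MYCN wildtype line.

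The centromere is the site on each chromosome where the kinetochore is built at mitosis. Nucleosomes that carry CENP-A in place of histone H3 mark the site, the inner kinetochore binds these nucleosomes throughout the cell cycle, and the outer kinetochore assembles on it and captures spindle microtubules. Kinetochores without microtubules catalyse the spindle checkpoint signal that delays anaphase. Transcripts of many of these genes accumulate late in the cell cycle and are scarce in cells that do not divide. GSK-J4 inhibits KDM6A and KDM6B, which demethylate lysine 27 on histone H3.

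The deposited data are 1 table per line of the authors' DESeq2 comparison, with a mean normalized count over the 6 libraries of a line, a log2 fold change and its standard error. They hold no value per library, so no spread between single libraries is given, and depth per library is unknown. The mean of a member ran from 80.7 (OIP5 in IMR5) to 24588 (CENPF in IMR5) in the authors' deposited table of each line. A level below is the estimated mean of the treated or untreated libraries, split from the deposited mean with the fold change and scaled so that the mean counts of all genes of that line sum to 1000000 units. The deposited fold changes were shrunken towards 0, and the fold changes below have this shrinkage removed and carry their standard error. No table states the direction, which was taken to be treated over untreated. The SK-N-FI table was assigned to its line by a resembling short name and by elimination, and all SK-N-FI values depend on this. A gene is called at an adjusted p under 0.05 in the authors' deposited table, adjusted over all genes of that line. Separate cultures are not stated for the replicates of a group, so these p-values measure only the spread between the libraries, which may be technical.

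Most members were called lower with GSK-J4 in each of the 3 sensitive lines, and no member was called in SK-N-BE(2). In LAN5, 26 of 42 members were called lower and 5 higher, where 19.2% of all 25753 genes tested were lower and 22.5% were higher. In IMR5, 28 were lower and 5 higher, against 21.6% and 22.6% of 22594 genes. In SK-N-FI, 24 were lower and 4 higher, against 14.8% and 16.8% of 22576 genes. Members are well-expressed genes, and among genes whose mean reached 100 the shares were 38.9% lower and 28.2% higher in LAN5, 35.7% and 34% for IMR5, and 24.1% and 25% for SK-N-FI. In SK-N-BE(2), 0 of 42 were called in either direction, where 0.858% of 13407 genes were lower and 1.62% higher (1.02% and 1.86% of those whose mean reached 100). With 42 members, a count of 0 lies near these small shares. The median fold change of the 42 members was −0.39 (LAN5), −0.54 (IMR5), −0.37 (SK-N-FI) and −0.0044 (SK-N-BE(2)) on the log2 scale. Over all genes with an adjusted p the same medians were 0.12, 0.020, 0.013 and −0.00026, and where the mean reached 100 they were −0.087, −0.016, 0.0017 and 0.0018. In bulk RNA, fewer dividing cells and less RNA of these genes per cell cannot be told apart.

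The calls overlapped between lines. Lower in all 3 sensitive lines were 20 members, where 5.83% of the 18599 genes tested in all 3 lines were (10.4% of the 9202 whose mean reached 100 in each). They span the CENP-A group (CENPA, HJURP), the inner kinetochore (CENPI, CENPM, CENPO, CENPP), the outer kinetochore (NDC80, SPC24, SPC25, DSN1, NSL1, ZWINT), KNTC1, both corona genes, SKA2, SKA3, BUB1, BUB1B and SGO2. SKA1 was the 1 member called higher in all 3 lines, where 5.01% of 18599 genes were (7.6% of the 9202). Of the rest, CENPH, MIS12 and MAD2L1 were lower in 2 sensitive lines, and OIP5, CENPC, CENPN, CENPT, CENPU, CENPW, NUF2, ZW10, BUB3 and SGO1 in 1. CENPL, CENPQ and MAD1L1 were higher in 2 lines, and PMF1, TTK and CENPJ in 1. CENPK and ZWILCH were called in opposite directions in different lines. Every member was thus called in at least 1 sensitive line, but the share of all genes for which this holds was not computed. Among genes whose mean reached 100, 38.9% were lower and 28.2% higher in LAN5, and 35.7% and 34% in IMR5. In SK-N-FI these shares were 24.1% and 25%, so calls in single lines were common.

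**Figure D1:**
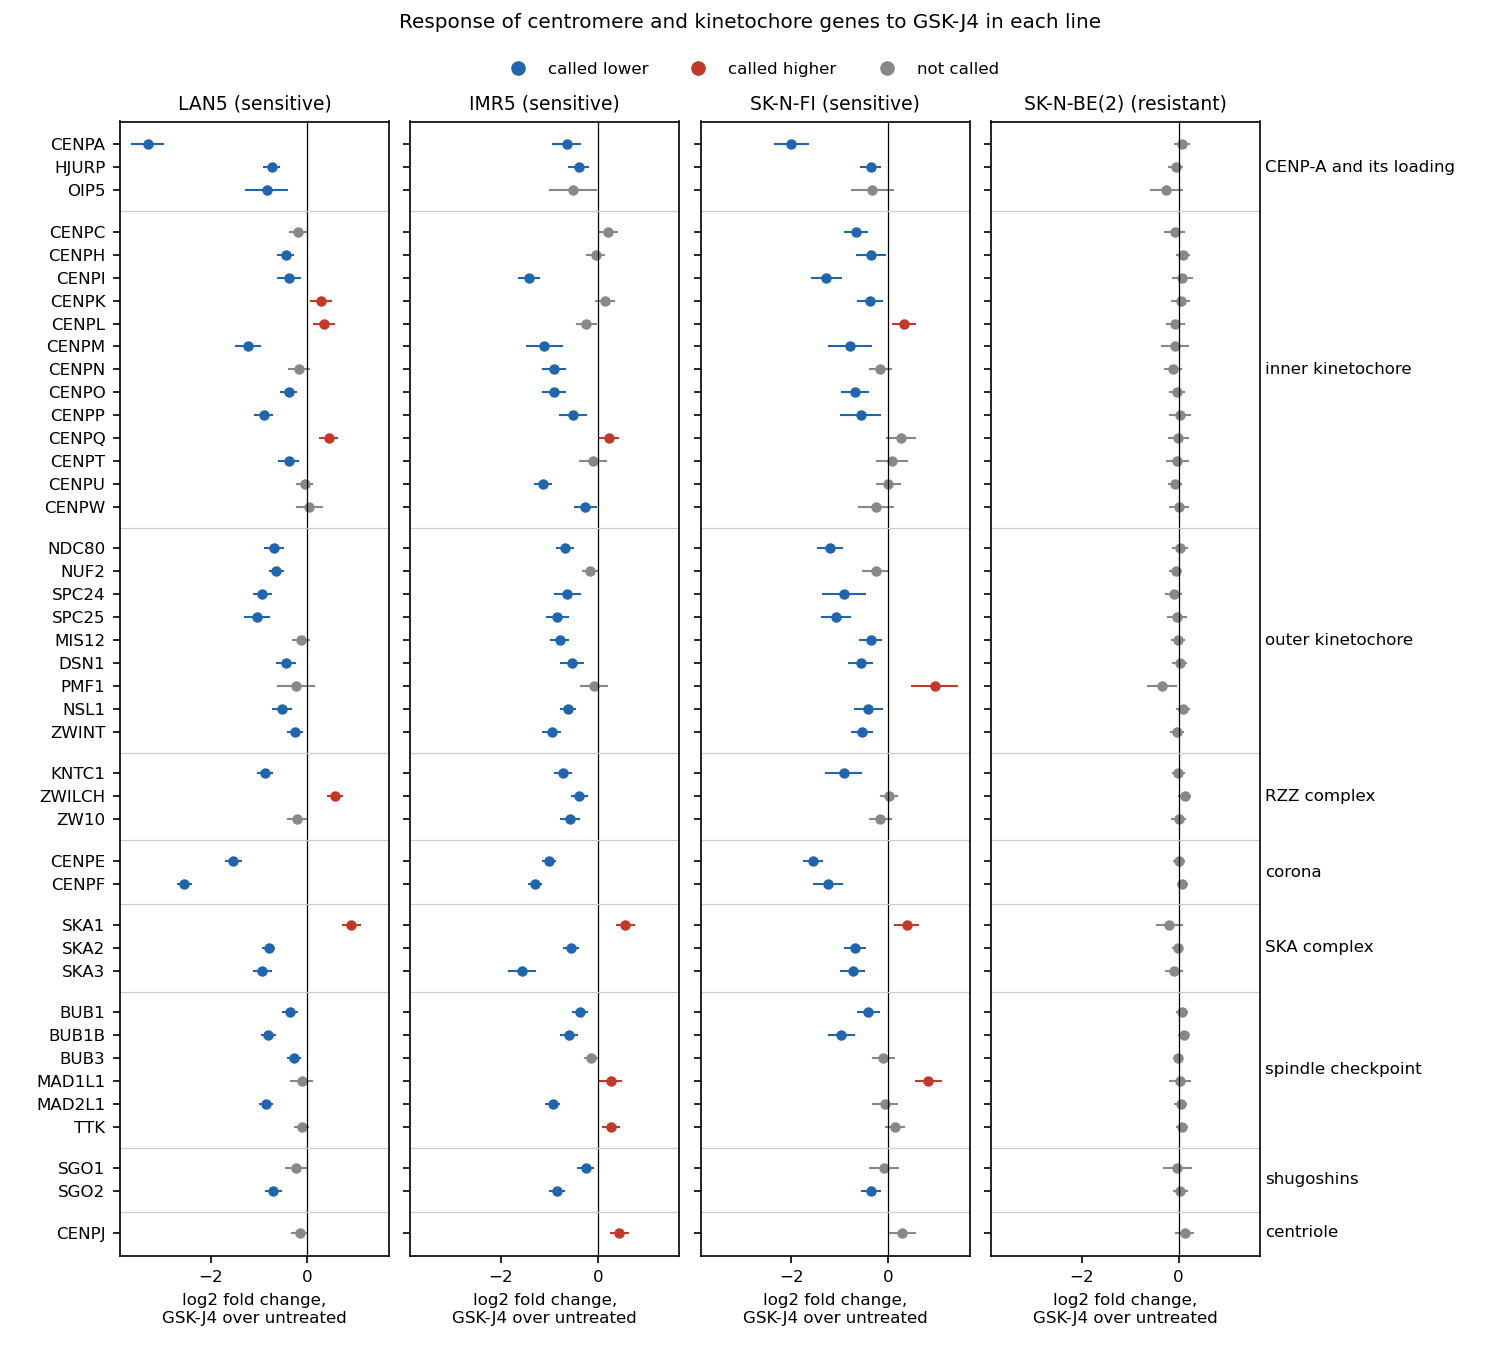
Log2 fold change of each of the 42 members (rows, grouped by role) with GSK-J4 over untreated in the 4 lines, with the shrinkage removed. Lines are 95% intervals, and colour gives the authors' call at an adjusted p under 0.05. Points lie mostly left of 0 in the 3 sensitive lines, SKA1 lies right of 0 in all 3, and the SK-N-BE(2) points lie between −0.34 and 0.12.

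The promoters of the members were read for 2 motifs that are known from genes transcribed late in the cell cycle, the cell cycle genes homology region (CHR) and the CCAAT box. RefSeq windows on GRCh38.p14, from 250 bases before to 50 after the transcript start, were found for 35 of 42 members. A CHR, searched as TTTGAA or TTCGAA on either strand, stood in 19 of the 35 windows (54.3%), and in 19.5% of the windows of 27305 genes. A match that began within 30 bases of the start was found in 13 members (37.1%) and in 4.02% of all windows. CCAAT, on either strand, stood in 23 members (65.7%) and in 39.7% of all windows. Among the members lower in all 3 sensitive lines, 10 of 18 windows held a CHR, and among the other members 9 of 17 did (55.6% and 52.9%). Of the 6 members with a window that were called higher in at least 1 sensitive line, SKA1 alone held one. A match is a run of letters in this window and is not a measured binding site.

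The stretches from 100 bases before to 10 after the start are shown for 7 members, picked after the values were seen. They are examples and do not show how often a CHR goes with lower levels. A CHR that began within 30 bases of the start stood in 7 of 18 members lower in all 3 sensitive lines (38.9%). Among the other members, 6 of 17 held one there (35.3%). Of the 6 members called higher in at least 1 sensitive line, 0 held one there. CENPA, SPC25, SKA3 and BUB1B were lower in all 3 sensitive lines, SGO1 in 1, CENPQ was higher in 2 and SKA1 in 3. Capitals mark CHR and CCAAT matches, and TTCAAA is TTTGAA read on the other strand. Sequences are from RefSeq, GRCh38.p14, 5′ to 3′ on the strand of the gene.
CENPA, chr2:26785956-26786065, plus strand: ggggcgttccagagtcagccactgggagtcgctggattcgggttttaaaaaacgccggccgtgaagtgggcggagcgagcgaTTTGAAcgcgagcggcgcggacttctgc
SPC25, chr2:168890421-168890530, minus strand: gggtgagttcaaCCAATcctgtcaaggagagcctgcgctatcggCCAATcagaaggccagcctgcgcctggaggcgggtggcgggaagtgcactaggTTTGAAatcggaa
SKA3, chr13:21176543-21176652, minus strand: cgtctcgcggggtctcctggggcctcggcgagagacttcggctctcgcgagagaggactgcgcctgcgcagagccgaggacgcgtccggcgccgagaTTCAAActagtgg
BUB1B, chr15:40160969-40161078, plus strand: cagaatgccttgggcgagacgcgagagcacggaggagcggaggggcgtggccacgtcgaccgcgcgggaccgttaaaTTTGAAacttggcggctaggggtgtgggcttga
SGO1, chr3:20186197-20186306, minus strand: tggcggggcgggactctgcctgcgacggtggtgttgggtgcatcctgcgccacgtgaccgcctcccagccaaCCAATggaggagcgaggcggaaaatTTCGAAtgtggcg
CENPQ, chr6:49463270-49463379, plus strand: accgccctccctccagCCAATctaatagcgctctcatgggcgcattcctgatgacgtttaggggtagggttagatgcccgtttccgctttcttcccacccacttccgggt
SKA1, chr18:50374946-50375055, plus strand: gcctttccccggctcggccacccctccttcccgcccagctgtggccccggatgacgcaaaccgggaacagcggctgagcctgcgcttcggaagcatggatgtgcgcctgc

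Of these stretches, 4 carry TTTGAA on either strand and 1 carries TTCGAA, and in each the match begins within 30 bases of the start. SPC25 and SGO1 also carry CCAAT. The CENPQ stretch carries CCAAT and no CHR, and the SKA1 stretch carries neither. The CHR of SKA1 begins 35 bases after the start, outside the stretch shown.

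**Figure D2:**
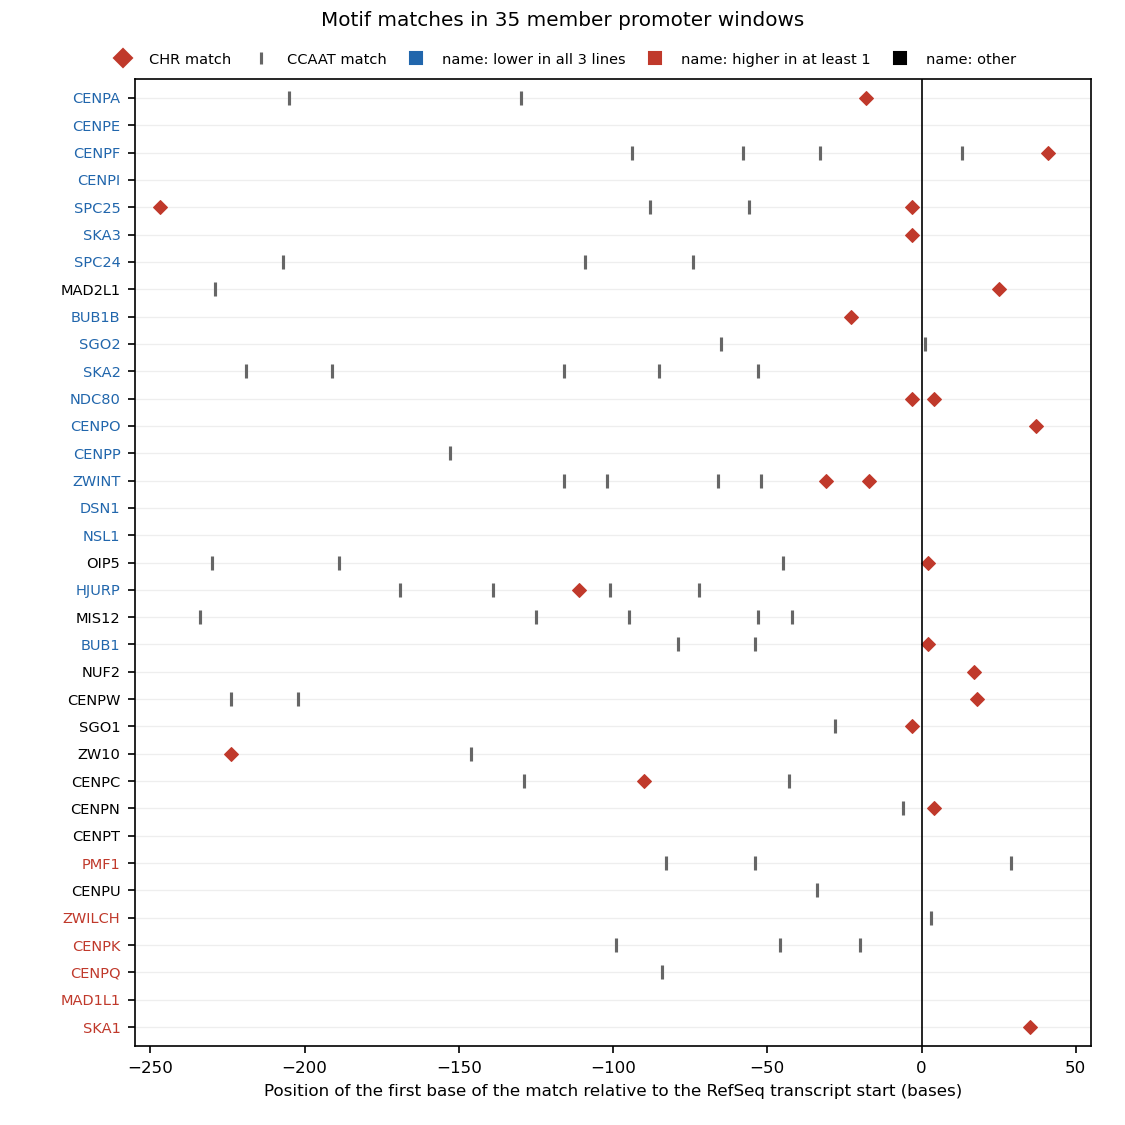
Positions of CHR and CCAAT matches in the promoter windows of 35 members, in bases from the RefSeq transcript start, ordered from the lowest to the highest median fold change over the 3 sensitive lines. Colour of the name gives the calls in those lines. CHR matches sit around the start in 13 members, both among the most lowered and among those with small changes.

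CENPA, which encodes the histone H3 variant of centromeric nucleosomes, had the lowest fold change of any member in LAN5 and SK-N-FI. Its level was 3.05 units with GSK-J4 against 30.1 untreated in LAN5, 13.4 against 21 (IMR5), and 4.66 against 18.7 (SK-N-FI). Treated LAN5 cells thus held 10.1% of the untreated level, IMR5 63.9% and SK-N-FI 25%. The adjusted p in the authors' deposited table was 2.53e-90 (LAN5), 1.82e-05 (IMR5) and 3.04e-28 (SK-N-FI). In SK-N-BE(2) the CENPA level was 68.2 with GSK-J4 and 64.6 untreated. HJURP, the chaperone that deposits CENP-A, fell in all 3 sensitive lines, by 0.74 ± 0.081 (log2, SE) (LAN5), 0.39 ± 0.10 (IMR5) and 0.36 ± 0.099 (SK-N-FI). OIP5, a subunit of the Mis18 complex that primes centromeres for loading, fell in LAN5 by 0.84 ± 0.22 and was not called in IMR5 (−0.52 ± 0.24) or SK-N-FI (−0.33 ± 0.21). OIP5 was a weak gene, at 3.41 to 9.0 units over all groups, and 38% of its exon bases overlap OIP5-AS1 on the other strand. Use of strand in the counting is not given in the sources used here, so reads of the 2 genes may not be separable.

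**Figure D3:**
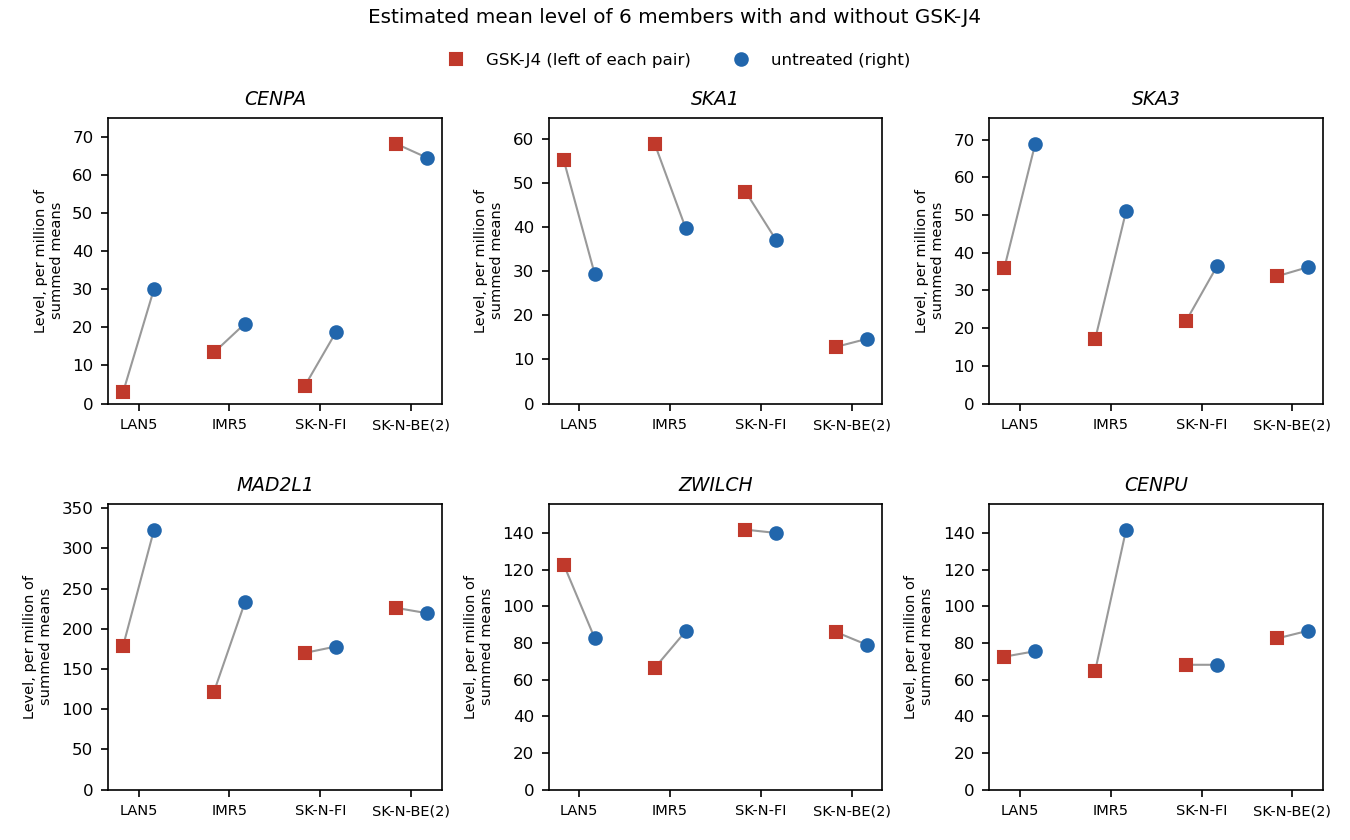
Estimated mean level of 6 members (in units of which the mean counts of a line sum to 1000000) with GSK-J4 (squares, left) and untreated (circles, right) in the 4 lines, with each axis starting at 0. No error is drawn because the tables hold no value per library. CENPA and SKA3 are lower with GSK-J4 in the 3 sensitive lines, SKA1 is higher, MAD2L1 is lower in LAN5 and IMR5, ZWILCH moves up in LAN5 and down in IMR5, and CENPU drops in IMR5.

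The inner kinetochore genes encode the constitutive centromere-associated network, which links CENP-A chromatin to the outer kinetochore. Of the 13, LAN5 had 6 lower and 3 higher, IMR5 7 lower and 1 higher, and SK-N-FI 7 lower and 1 higher. The LAN5 counts lie near the shares among genes whose mean reached 100, 38.9% lower and 28.2% higher. For IMR5 these shares were 35.7% and 34%, and for SK-N-FI 24.1% and 25%. CENPM was lower in all 3, at 10.9 units with GSK-J4 against 25.4 untreated in LAN5, 5.32 against 11.5 (IMR5), and 6.05 against 10.5 (SK-N-FI). CENPI reached 37.3% of untreated in IMR5 and 41.2% in SK-N-FI, but 76.8% in LAN5. CENPO and CENPP were also lower in all 3 lines, although 31.4% of CENPO exon bases and 42.7% of CENPP exon bases overlap other genes on the opposite strand. Whether this touches their counts depends on the use of strand, as for OIP5.

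Other inner kinetochore genes were called in 1 or 2 of the sensitive lines. CENPU had 64.9 units with GSK-J4 against 142 untreated in IMR5, and 72.5 against 75.5 in LAN5. In SK-N-FI the CENPU level was 68.1 in both groups. CENPC, the scaffold that contacts both CENP-A and the outer kinetochore, was called in SK-N-FI, with −0.67 ± 0.11, and had 0.21 ± 0.094 in IMR5. CENPN, a reader of CENP-A nucleosomes, was called in IMR5, at 53.4% of untreated, and 22.8% of its exon bases overlap other genes on the opposite strand. CENPH was lower in LAN5 and SK-N-FI, CENPT in LAN5, and CENPW in IMR5. For CENPT and CENPW no difference between lines was called. CENPK rose in LAN5 by 0.28 ± 0.10 and fell in SK-N-FI by 0.38 ± 0.13. A pair of subunits rose in 2 lines each, CENPL in LAN5 (0.35 ± 0.11) and SK-N-FI (0.32 ± 0.12) and CENPQ in LAN5 (0.44 ± 0.090) and IMR5 (0.23 ± 0.094).

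Of the 9 outer kinetochore genes, 7 were called lower in each sensitive line, where 38.9% (LAN5), 35.7% (IMR5) and 24.1% (SK-N-FI) of genes whose mean reached 100 were. PMF1 was called higher in SK-N-FI. The NDC80 complex binds microtubules directly through NDC80 and NUF2 and is tethered by SPC24 and SPC25. SPC25 had 15.6 units with GSK-J4 against 32 untreated in LAN5, 20.5 against 36.5 (IMR5), and 22.3 against 47.3 (SK-N-FI). The remaining level of SPC25 was thus between 47.3% and 56.1% of untreated in the 3 lines. NDC80 was at 61.9% of untreated (LAN5), 62.6% (IMR5) and 43.4% (SK-N-FI), and SPC24 was at 52.4%, 64.6% and 52.9%. NUF2 was called in LAN5, where it was at 64.0% of untreated, and had 89.6% in IMR5 and 83.6% in SK-N-FI.

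The MIS12 complex joins the NDC80 complex to the inner kinetochore and consists of MIS12, DSN1, NSL1 and PMF1. DSN1 was at 73.1% of untreated (LAN5), 69.3% (IMR5) and 67.2% (SK-N-FI), and NSL1 was at 69.3%, 65.3% and 75.3%. MIS12 itself was at 58.0% in IMR5 and 77.6% in SK-N-FI, and was not called in LAN5 (91.5%). PMF1 was the exception, with 7.76 units with GSK-J4 against 3.98 untreated in SK-N-FI, and was not called in LAN5 or IMR5. PMF1 is weak, and 23.3% of its exon bases are shared with the read-through gene PMF1-BGLAP, so its counts are uncertain. ZWINT, which links the outer kinetochore to the RZZ complex, was at 83.6% (LAN5), 51.5% (IMR5) and 68.7% (SK-N-FI) of untreated.

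The RZZ complex recruits dynein and checkpoint proteins to kinetochores. All 3 of its genes were called lower in IMR5, 1 was lower and 1 higher in LAN5, and 1 was lower in SK-N-FI. Among genes whose mean reached 100, 35.7% were lower in IMR5, 38.9% were lower and 28.2% higher in LAN5, and 24.1% were lower in SK-N-FI. The LAN5 and SK-N-FI counts lie near these shares. KNTC1, the gene of the ROD subunit, was at 54.3% of untreated (LAN5), 60.7% (IMR5) and 52.9% (SK-N-FI). ZWILCH was 123 units with GSK-J4 against 82.7 untreated in LAN5, and 66.3 against 86.3 in IMR5. Both ZWILCH changes were called, in opposite directions, with an adjusted p of 7.53e-13 in LAN5 and 3.22e-06 in IMR5 in the authors' deposited table. ZWILCH in SK-N-FI had 142 units with GSK-J4 against 140.0 untreated, with no call. ZW10 was called in IMR5 (66.7% of untreated), with 86.3% in LAN5 and 89.3% in SK-N-FI.

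Both corona genes showed large decreases. CENPE, a kinesin that carries chromosomes to the spindle equator, had 82.3 units with GSK-J4 against 238 untreated in LAN5, 155 against 313 (IMR5), and 71.0 against 208 (SK-N-FI). CENPF, a large coiled-coil protein of the outer kinetochore and a common proliferation marker, had 237 units against 1382 in LAN5, 731 against 1798 (IMR5), and 188 against 446 (SK-N-FI). Treated cells thus held 17.2% of the untreated CENPF level (LAN5), 40.6% (IMR5) and 42.1% (SK-N-FI). In SK-N-BE(2), CENPE was 242 with GSK-J4 and 241 untreated, and CENPF was 990.2 and 940.0.

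The SKA complex, which lets kinetochores follow shortening microtubules, had subunits that moved in opposite directions in each sensitive line. SKA1 had 55.1 units with GSK-J4 against 29.4 untreated in LAN5, 58.9 against 39.9 (IMR5), and 48.0 against 37.0 (SK-N-FI). Its rise was 0.91 ± 0.090 (log2) (LAN5), 0.56 ± 0.090 (IMR5) and 0.38 ± 0.12 (SK-N-FI), with an adjusted p of 1.02e-22, 2.56e-09 and 0.00719 in the authors' deposited tables. SKA2 had 136 units with GSK-J4 against 237 untreated in LAN5, 202 against 295 (IMR5), and 82.7 against 134 (SK-N-FI). SKA3 had 36.0 against 68.9 in LAN5, 17.2 against 51.1 (IMR5), and 21.9 against 36.4 (SK-N-FI). SKA3 had the lowest fold change of any member in IMR5, at −1.57 ± 0.13. In SK-N-BE(2) the SKA1 level was 12.9 with GSK-J4 and 14.7 untreated, below both groups of every sensitive line.

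Of the 6 checkpoint genes, 4 were lower in LAN5, 3 were lower and 2 higher in IMR5, and 2 were lower and 1 higher in SK-N-FI. Among genes whose mean reached 100, 38.9% (LAN5), 35.7% (IMR5) and 24.1% (SK-N-FI) were lower, and 28.2%, 34% and 25% were higher. With 6 genes, the counts in IMR5 and SK-N-FI are not clearly apart from these shares. BUB1B, which encodes the inhibitor BUBR1 of the anaphase-promoting complex, had 118 units with GSK-J4 against 207 untreated in LAN5, 54.8 against 82.8 (IMR5), and 67.6 against 132 (SK-N-FI). BUB1, the kinase that recruits other checkpoint proteins, was at 77.7% of untreated (LAN5), 77.6% (IMR5) and 75.0% (SK-N-FI). The LAN5 minus IMR5 difference of BUB1 was not called, with a 95% interval from −0.20 to 0.20 (log2). BUB3, the partner of both, was called lower in LAN5 (82.9% of untreated).

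MAD2L1 encodes the checkpoint protein that sequesters CDC20. It had 179 units with GSK-J4 against 323 untreated in LAN5, and 122 against 233 in IMR5. In SK-N-FI the level was 170.0 against 178, and the gene was not called. MAD1L1, which anchors MAD2 at kinetochores, rose to 27.2 units in treated SK-N-FI, against 15.3 untreated, and to 25 in treated IMR5, against 20.8 untreated. In LAN5, MAD1L1 was not called (92.1% of untreated). TTK, the master checkpoint kinase, rose in IMR5 by 0.27 ± 0.080 and was not called in the other sensitive lines.

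The shugoshins protect cohesin at centromeres. SGO2 was lower in all 3 sensitive lines, at 61.2% of untreated (LAN5), 55.9% (IMR5) and 77.9% (SK-N-FI). SGO1 was called in IMR5 (83.9%), with 84.4% in LAN5 and 93.8% in SK-N-FI. The adjusted p of SGO1 was 0.0504 in LAN5 and 0.00475 in IMR5 in the authors' deposited tables. CENPJ, named for its centromere-related symbol but known as a centriole assembly factor, rose in IMR5 to 89.7 units against 65.8 untreated. It was not called in LAN5, at 89.3% of untreated, or in SK-N-FI, at 122%.

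In SK-N-BE(2), the fold changes of the 42 members ran from −0.34 (PMF1) to 0.12 (CENPJ). The smallest adjusted p in the authors' deposited table was 0.288, for PMF1, and 3 members had an unadjusted p under 0.05 by the DESeq2 test of the authors (PMF1, ZWILCH and BUB1B). No other tool could be run on this table. The 95% intervals of the members reached down to −0.63 for PMF1 and to −0.58 for the rest, and up to 0.29. For CENPA, CENPE and CENPF the lower bounds were −0.065, −0.09 and −0.021, above every fold change of these genes in the sensitive lines. The missing calls do not show that the levels were equal.

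The response was then compared between lines in a Wald test of the fold changes, over the 8982 genes whose mean reached 100 in each of the 4 tables. It took in 40 members, since OIP5 and PMF1 were under that mean. The mean of the 3 sensitive lines minus SK-N-BE(2) was called for 31 of 40 members, 28 below 0 and 3 above, where 32.6% of all genes were below and 26.4% above. The median difference of the members was −0.44 (log2), and that of all genes was −0.035. The lowest differences belonged to CENPA (−2.06 ± 0.12, adjusted p = 4.42e-66), CENPF (−1.77 ± 0.076, adjusted p = 1.71e-116) and CENPE (−1.37 ± 0.068, adjusted p = 9.87e-88). The 3 above 0 were SKA1 (0.81 ± 0.14, adjusted p = 5.57e-08), CENPQ (0.32 ± 0.12, adjusted p = 0.0172) and MAD1L1 (0.30 ± 0.12, adjusted p = 0.0274). CENPQ was no longer called without LAN5 (0.25), nor MAD1L1 without SK-N-FI (0.050; 0.52 without LAN5), and neither was called with the other solution of the prior removal in SK-N-BE(2) or at an adjusted p under 0.01. Without IMR5, CENPU turned to 0.043 (against −0.32), while it was −0.49 without LAN5 and −0.52 without SK-N-FI. Also without IMR5, CENPN (−0.059), ZW10 (−0.19) and BUB3 (−0.17) were no longer called. MIS12 and ZWINT were still called without IMR5, at −0.23 (against −0.41) and −0.36 (against −0.55). Without LAN5, NUF2 (−0.15) and BUB3 (−0.10) were no longer called. Differences of CENPC, CENPK, CENPL, CENPT, CENPW, ZWILCH, TTK, SGO1 and CENPJ were not called. With 1 resistant line, the test compares these 4 lines and not sensitive with resistant cells in general. In the SK-N-BE(2) table, unlike the others, the deposited statistic was not the ratio of fold change and error, so its making may have differed.

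The 2 MYCN-amplified sensitive lines differed from each other in 23 of 40 members, 12 lower in LAN5 and 11 lower in IMR5. Of all genes, 33.7% and 27.3% differed in these directions, so the member counts lie near the shares of all genes. CENPA had a fold change of −3.30 in LAN5 and −0.65 in IMR5, a difference of −2.66 ± 0.21 (adjusted p = 1.38e-33). CENPF differed by −1.24 ± 0.092. In the other direction, the fold changes of CENPU, CENPI and ZWILCH in LAN5 were above those in IMR5 by 1.07 ± 0.11, 1.04 ± 0.16 and 0.95 ± 0.11. The median difference of the members was −0.0073, beside −0.060 for all genes.

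The mean of LAN5 and IMR5 minus SK-N-FI was called for 12 of 40 members, 7 below 0 and 5 above, where 28.4% of all genes were below and 18.9% above. MAD2L1 had the lowest value (−0.83 ± 0.13, adjusted p = 4.51e-09), followed by MAD1L1 (−0.75 ± 0.15), CENPF (−0.67 ± 0.16), CENPU (−0.59 ± 0.13), SKA3 (−0.52 ± 0.14), SGO2 (−0.41 ± 0.11) and CENPN (−0.37 ± 0.14). CENPC (0.68 ± 0.13), CENPK (0.59 ± 0.15), NDC80 (0.52 ± 0.14), SKA1 (0.36 ± 0.14) and CENPE (0.27 ± 0.11) lay above 0. CENPA was not called, with 0.028 ± 0.21, and its fold change in SK-N-FI lay between those of LAN5 and IMR5. MYCN status and the single wildtype line cannot be told apart. The 3 comparisons between lines use the same effects of the same lines and are not independent of each other.

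**Figure D4:**
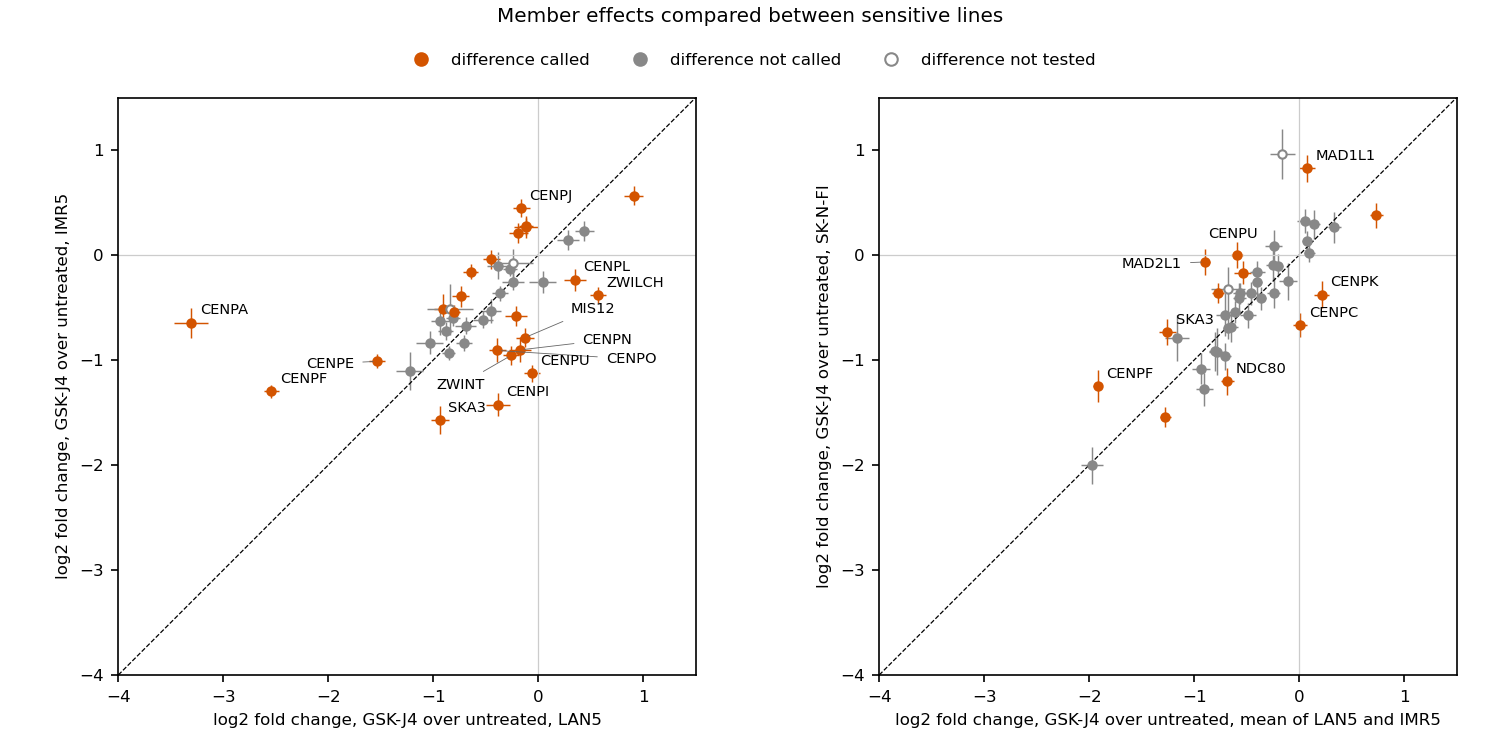
Log2 fold changes of the members compared between LAN5 and IMR5 (left) and between the mean of LAN5 and IMR5 and SK-N-FI (right), with standard errors. The dashed line marks equal effects, colour marks differences called at an adjusted p under 0.05, and names are given for called differences of at least 0.5. CENPA and CENPF lie far left of the line in the left panel, and CENPU, CENPI and ZWILCH lie to its right.

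The untreated level of the members was close to that of SK-N-BE(2) over the set as a whole, while single members differed. The median log2 ratio of untreated levels over SK-N-BE(2) was 0.0069 (LAN5), 0.13 (IMR5) and −0.20 (SK-N-FI), and 0.047, −0.033 and 0.0075 over 8982 genes. These levels come from tables normalized separately and carry no test. In LAN5, 1 member lay at −1 or lower and 4 at 1 or higher, beside 7.46% and 9.71% of the 8982 genes. In IMR5 these counts were 1 and 5 (12.1% and 7.6% of genes), and in SK-N-FI 5 and 4 (11.7% and 12.3%). CENPA was lower in all 3 lines than in SK-N-BE(2), with log2 ratios of −1.10, −1.62 and −1.79. SKA1 was higher in all 3, with 1.00, 1.44 and 1.33. CENPJ and SGO1 were also higher in each, and SGO1 reached 2.20 in IMR5. SPC24 had 12.4 units in untreated SK-N-FI and 56.3 in untreated SK-N-BE(2), a log2 ratio of −2.18.

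**Figure D5:**
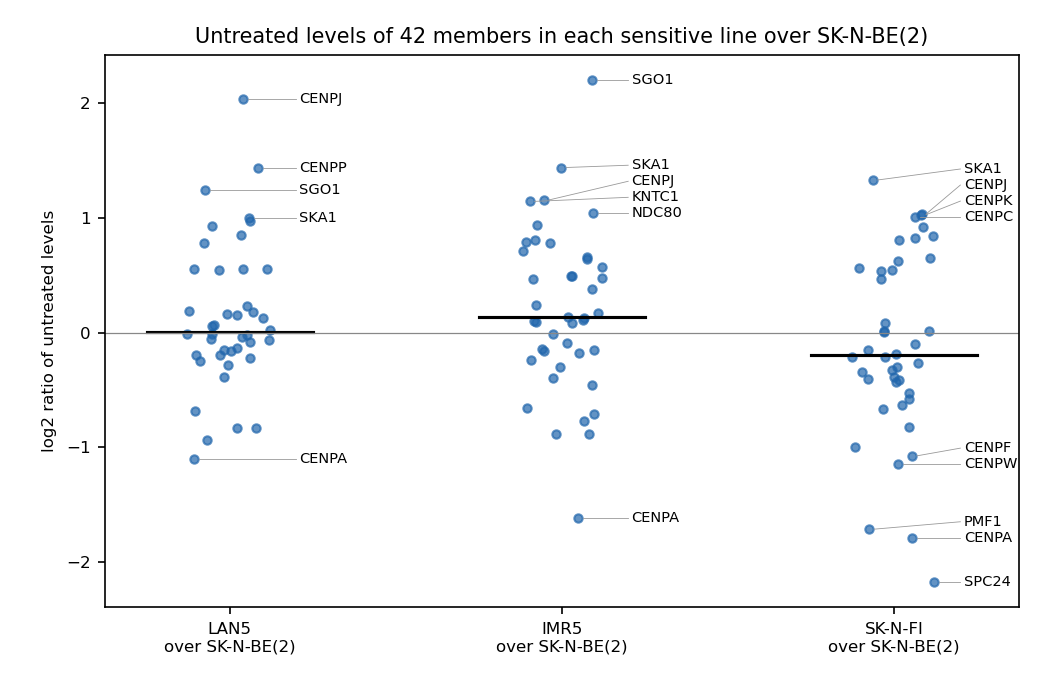
Log2 ratio of the untreated level of each of the 42 members in a sensitive line over SK-N-BE(2), with the median as a black bar. Names are given for ratios of at least 1 in size. The medians lie at 0.0069, 0.13 and −0.20, CENPA lies at or below −1.10 and SKA1 at or above 1.00 in each line.

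Per kilobase of exon, CENPF led the untreated members in LAN5 (118 units per kilobase), IMR5 (154) and SK-N-BE(2) (80.4), and BUB3 led in SK-N-FI (55.9). SKA2 was among the first 3 in every untreated line. CENPP was last in IMR5, SK-N-FI and SK-N-BE(2), and PMF1 was last in LAN5. With GSK-J4, CENPF held place 13 of 42 in LAN5 and 12 in SK-N-FI, against places 1 and 4 untreated, and CENPA held place 42 in LAN5, against 24 untreated. SKA1 held place 14 in treated LAN5, against 31 untreated.

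Most other genes of the pathway, from a list of 24 outside the members, were also called lower in each sensitive line. Counts of lower and higher genes were 18 and 1 (LAN5), 20 and 1 (IMR5), 13 and 1 (SK-N-FI), and 0 and 0 (SK-N-BE(2)). The shares of lower genes among all genes tested were 19.2%, 21.6%, 14.8% and 0.858% in these lines, and 38.9%, 35.7%, 24.1% and 1.02% where the mean reached 100. For AURKB, the kinase of the chromosomal passenger complex, the authors' deposited tables give the shrunken log2 values −2.21 (LAN5), −0.55 (IMR5) and −1.37 (SK-N-FI). For PLK1, a mitotic kinase that works at kinetochores, the authors' deposited tables give −3.09 (LAN5), −1.0 (IMR5) and −1.52 (SK-N-FI). KNL1, the outer kinetochore scaffold of the checkpoint, had −0.38 (LAN5), −0.53 (IMR5) and −0.83 (SK-N-FI) there. RSF1, a chromatin remodelling subunit, rose in IMR5 and SK-N-FI by 0.37 and 0.60, and MAD2L1BP, which helps to silence the checkpoint, rose in LAN5 by 0.48 and fell in IMR5 by 0.54, in the authors' deposited tables. Of the proliferation genes MKI67, TOP2A and PCNA, all 3 were lower in LAN5 and SK-N-FI, 2 of 3 were lower in IMR5, and 0 were called in SK-N-BE(2). Lower proliferation genes thus accompanied the lower members in the same lines, and the part of the cell cycle in the members' change was not tested.

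Marker lists were read as a check of the labels. All lines expressed adrenergic neuroblastoma markers, with a summed level of 1624 units with GSK-J4 against 3703 untreated in LAN5, 1301 against 1384 (IMR5), 1599.7 against 2252 (SK-N-FI), and 2604 against 3034 (SK-N-BE(2)). Of these markers 9 of 10 were lower in LAN5, 6 of 10 were lower in SK-N-BE(2), 6 of 9 were lower and 1 higher in SK-N-FI, and 4 of 9 were lower and 4 higher in IMR5. TH was not listed for IMR5 or SK-N-FI. Schwann and glial markers summed to 1.72 to 24.3 units, with 3, 1, 1 and 0 higher in LAN5, IMR5, SK-N-FI and SK-N-BE(2) and none lower, and SOX10 was listed in no line. Immune and endothelial markers summed to 0.108 to 10.2 units, with 1 called, higher in LAN5. Fibroblast and muscle markers summed to 92.5 to 213 units in the sensitive lines, and to 2310 with GSK-J4 and 1912 untreated in SK-N-BE(2). There, most of both sums came from LUM (1369.7 and 1115 units) and DCN (797 and 682). Of these fibroblast and muscle markers, 3 were lower and 4 higher in LAN5, and 3 and 2 in IMR5. In SK-N-FI 2 were lower and 3 higher, and in SK-N-BE(2) 1 and 3. The 13 mitochondrial mRNAs summed to 43809 units with GSK-J4 against 71540.1 untreated in LAN5, 36258 against 48004 (IMR5), 13579 against 52609 (SK-N-FI), and 51998 against 51559.7 (SK-N-BE(2)). Of the 13, 9 were lower and 1 higher in LAN5, 8 lower and 2 higher in IMR5, 13 lower in SK-N-FI, and 2 lower in SK-N-BE(2), where no member was called. Their part in the members' change was not tested.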

How the data were processed

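Polyadenylated RNA of 24 libraries (8 groups of 3) had been sequenced after stranded library preparation, per the labels' protocols. The submitters' processing notes name FastQC, STAR, DESeq2 and hg38, without versions or annotation release. Of the counting tool, its strand setting and the design formula, each is not given in the sources used here. From each table of the authors, 6 deposited columns were used. The first, a signal, is the mean normalized count of the 6 libraries, scaled by the authors within a line. Deposited log2 fold changes, their standard errors, the Wald statistic (a score), the p-value and the adjusted p-value were taken as the authors deposited them. Tables list 29328 to 33561 genes, with an adjusted p for 13407 to 25753. Depth per library is unknown, so precision is given only by the standard errors.

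The SK-N-FI table has a short name that resembles that line, and was assigned by likeness and elimination, which all values of SK-N-FI depend on. The sign was read from BBC3, which the study is known to report as induced and which is positive in the 3 sensitive lines. In SK-N-BE(2) it was read from MT2A and SLC30A1, which are positive in all 4 tables. Gene symbols are of a newer form in the SK-N-BE(2) table (5 of 5 symbol pairs) than in the other 3 tables (0 of 5).

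A normal prior was removed from each fold change and error, with a prior precision of 1 over the square of 2 times the largest error of the table. Of the 2 solutions, that with the smaller error was used for means above the peak of the running median error (501 genes). This peak lay at a mean of 3.15 (LAN5), 4.01 (IMR5), 4.66 (SK-N-FI) and 134 (SK-N-BE(2)), close to OIP5 in that last table. Differences between lines were tested by two-sided Wald tests of the prior-removed values, over the 8982 genes whose mean reached 100 in each of the 4 tables, with Benjamini-Hochberg adjustment at 0.05. The planned count test over libraries was replaced by the authors' calls. The script was tested on simulated data. Members, lists and the rule for named genes were chosen with earlier results of these data known. By that rule the text names, per role, the members with the lowest and highest fold change, every member called higher and every member called in a difference. The sequences shown were chosen after the values were seen. Exon overlaps and lengths are from GENCODE on GRCh38, and promoter windows from RefSeq on GRCh38.p14 (35 of 42 members). Python 3.11.15, numpy 2.4.6, scipy 1.17.1, pandas 2.3.3 and matplotlib 3.10.9 were used.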

Additional observations from a re-analysis of the deposited data

Results flagged for a closer look

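Each member named here responded to GSK-J4 differently between lines by a two-sided Wald test of the difference itself, at an adjusted p under 0.05 over 8982 genes. Values are differences of prior-removed log2 fold changes. Between the mean of the 3 sensitive lines and SK-N-BE(2), 31 of 40 members differed, where 32.6% of all genes lay below 0 and 26.4% above. The values below 0 were CENPA −2.06, CENPF −1.77, CENPE −1.37, CENPI −1.11, SKA3 −0.98, CENPM −0.96, SPC25 −0.95, BUB1B −0.91, NDC80 −0.89, KNTC1 −0.84, SPC24 −0.73, CENPP −0.70, SGO2 −0.67, SKA2 −0.66, MAD2L1 −0.66, CENPO −0.63, NSL1 −0.61, ZWINT −0.55, DSN1 −0.54, BUB1 −0.45, HJURP −0.44, MIS12 −0.41, CENPH −0.38, CENPU −0.32, ZW10 −0.32, CENPN −0.30, NUF2 −0.29 and BUB3 −0.15. The CENPU value turned to 0.043 without IMR5. The values above 0 were SKA1 0.81, CENPQ 0.32 and MAD1L1 0.30.

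Between the mean of LAN5 and IMR5 and the MYCN wildtype line SK-N-FI, 12 of 40 members differed, where 28.4% of all genes lay below 0 and 18.9% above. The values below 0 belonged to MAD2L1 −0.83, MAD1L1 −0.75, CENPF −0.67, CENPU −0.59, SKA3 −0.52, SGO2 −0.41 and CENPN −0.37. Those above 0 belonged to CENPC 0.68, CENPK 0.59, NDC80 0.52, SKA1 0.36 and CENPE 0.27.

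Between LAN5 and IMR5, 23 of 40 members differed, where 33.7% of all genes were lower in LAN5 and 27.3% higher. The members thus differed about as often as all genes did. Fold changes lower in LAN5 gave CENPA −2.66, CENPF −1.24, CENPJ −0.61, CENPE −0.52, NUF2 −0.49, CENPH −0.40, CENPC −0.40, CENPP −0.39, TTK −0.39, MAD1L1 −0.39, HJURP −0.35 and SKA2 −0.26. Fold changes higher in LAN5 gave CENPU 1.07, CENPI 1.04, ZWILCH 0.95, CENPN 0.73, ZWINT 0.70, MIS12 0.66, SKA3 0.64, CENPL 0.59, CENPO 0.52, ZW10 0.37 and SKA1 0.34. ZWILCH is the member whose effect was called in both lines and in opposite directions.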

How the results depend on the processing

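Of 84 alternative counts and medians, 72 were close to the main value. A count had to lie within 1.5 times of the main count. A median level had to lie within the median standard error of the members, and its sign was not checked. Of 823 values of single members, 782 kept direction and call. The 84 include counts of members called in SK-N-BE(2). These were 0 and could not change under a stricter adjusted p or a fold change limit, so the tally overstates how much was put to the test. With a deposited fold change of at least 1 in size as a further condition, 5 members were lower in LAN5 and 6 each in IMR5 and SK-N-FI, and 0 were higher in each. Of all genes, 1003 were then lower and 3051 higher in LAN5 (25753 tested), and 1244 and 1866 in IMR5 (22594 tested). For SK-N-FI these counts were 658 and 1111 (22576 tested). At an adjusted p under 0.01, 3 members were higher in IMR5, against 5, where 4321 of all genes were. With a mean of at least 500, only 22 members were tested, among 4717 genes. Of these members, 19 differed between sensitive lines and SK-N-BE(2), 7 between MYCN-amplified lines and SK-N-FI, and 12 between LAN5 and IMR5. How many of the 4717 genes differed was not computed, so these counts cannot be set against a share of all genes. With the deposited mean over all libraries in place of the untreated level, the median log2 ratio over SK-N-BE(2) was −0.18 in LAN5 and −0.023 in IMR5. CENPU reversed when IMR5 was left out of the sensitive lines, with a difference from SK-N-BE(2) of 0.043.

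Leaving out LAN5, IMR5 or SK-N-FI left 29, 29 or 30 members that differed from SK-N-BE(2), against 31, and reading the SK-N-BE(2) sign the other way gave 34. Chosen after seeing the data, the other solution of the prior removal in SK-N-BE(2) gave 29, with 28 below 0 and 1 above. In the main comparison, 32.6% of all 8982 genes were below 0 and 26.4% above. The shares of all genes under these changes were not computed. Without members that share over 20% of exon bases, 23, 25 and 22 were lower in LAN5, IMR5 and SK-N-FI. OIP5, CENPN, CENPO, CENPP and PMF1 were left out here, so these counts are out of fewer than 42 members. Of all genes tested, 19.2%, 21.6% and 14.8% were lower in these lines, and 38.9%, 35.7% and 24.1% where the mean reached 100. Over all genes of LAN5, 53.9% of calls were higher, and 41.9% where the mean reached 100. No paired analysis was possible because the tables hold no value per library, and for the same reason a replicate block, other normalizations and leaving out libraries were not run. Levels of weak members such as OIP5 and PMF1 are limited by their low means.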
